A study of Rattus norvegicus with 40 samples.

Results

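The genes described here encode 11 families of enzymes that process drugs, plant compounds, steroids and other small lipophilic molecules, measured in whole intestine and lung of fetal rats. They were taken by symbol: cytochromes P450 of families 1 to 4 (Cyp1, Cyp2, Cyp3, Cyp4), cytosolic glutathione S-transferases (Gst), membrane-bound microsomal glutathione S-transferases (Mgst), UDP-glucuronosyltransferases (Ugt), sulfotransferases (Sult), carboxylesterases (Ces), flavin-containing monooxygenases (Fmo) and epoxide hydrolases (Ephx). Of the 14218 genes with a probe set of their own (the set of short probes that reads a transcript on these arrays), 99 belonged to these families, on 112 of 31099 probe sets. A further 8 probe sets of the families named several genes, those of the Ugt1a locus among them, and were not used. Each gene was read from its brightest probe set.

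RNA came from Wistar rat fetuses of timed matings at gestational day 16 (E16) or day 20 (E20), with no treatment in any group. Each of the 4 groups (intestine E16, intestine E20, lung E16 and lung E20) had 10 Affymetrix rat expression arrays. By its title the study concerned preparation of both organs for birth. The labels speak of frozen tissue of several littermates, and whether an array holds a single fetus or a pool is not settled, so the p-values reflect spread between samples that may be technical in part. The labelled RNA was 1 µg in intestine samples but 2 µg in lung samples, and tissue and RNA amount cannot be told apart. In whole organs, fewer cells of a type and less RNA per cell cannot be told apart either.

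As background, these families work in sequence. P450s and flavin monooxygenases insert oxygen, with electrons that P450 oxidoreductase delivers to microsomal P450s, while carboxylesterases and epoxide hydrolases add water. Transferases then attach glutathione, glucuronic acid or sulfate, and export pumps remove the product. Liver is the main site in the adult, but the enterocytes of the small intestine and the club cells of the airway epithelium are the classical sites outside it, the first toward swallowed and the second toward inhaled compounds.

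Values are log2 of the deposited intensity. The median over all probe sets and arrays, 7.89, serves below as the mark between bright and dim, because no detection calls were used. A gene is said to have risen or fallen where limma's adjusted p was under 0.05 over all 14218 genes and the change was at least 2-fold, which is 1 log2 unit. Array medians lay between 220 and 264 intensity units. The labelled organs carried most of their markers at E20. All 8 measured enterocyte and all 5 goblet cell genes were higher in intestine than in lung. All 8 alveolar type II genes were higher in lung, while of 3 airway secretory genes 2 were higher and 1 lower there. Every gene of these lists also rose with age in its own organ. In the other organ, 3 alveolar type II genes rose in intestine, and 2 goblet genes and 1 enterocyte gene rose in lung. Some arrays stood out from their group on marker lists of other cell types. The exocrine pancreas list lay 1.86 to 2.08 above its group median in intestine E16 replicates 6, 8 and 9. The hepatocyte list was 1.75 above it in intestine E16 replicate 9, 0.93 above in intestine E20 replicate 9, and 1.88 and 2.01 above in lung E20 replicates 1 and 8. The mesothelium list was 1.07 above in lung E20 replicate 6. Counts without these 7 arrays are given beside the main ones. They are called the arrays with other tissues below, as a label only. Whether tissue was carried over was not tested.

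On the probe set brightest on average, 56 of the 99 genes had no group mean above the median. The share over all genes was not counted, so this is not read as particular to the families. Fmo2 and Fmo4 are among the 56, but other probe sets of theirs exceeded the median. Those group means were 8.35 and 8.36 in lung E20 for Fmo2 and 8.87 in intestine E20 for Fmo4. The bright share differed by family, with 15 of 19 Gst and all 3 Mgst genes above the median in at least 1 group, against 7 of 25 Cyp2, 4 of 14 Sult and 1 of 9 Ugt genes. Between E16 and E20, 13 of the 99 rose in intestine and 1 fell. That is 14.1% called, beside 15.1% of all genes tested (8.79% higher, 6.26% lower), so the total was near the background. In lung 16 rose and none fell, 16.2% called beside 11.8% of all genes (7.15% higher, 4.63% lower). Members' median changes were 0.07 in both intestine and lung, beside -0.09 and -0.01 over all genes. In intestine, 23 members were higher at E20 without any overlap between the ages and 5 were lower (background 17.3% and 20.3% of genes). In lung these counts were 23 and 4 (background 15.2% and 15.9%). Without the 7 arrays with other tissues, the intestine count stayed at 13 up and 1 down, the same 14 genes. The lung count became 18 up and 2 down, with Ephx1 (1.01), Gstm7 (1.02), Gsta3 (-1.02) and Gstm5 (-1.13) added.

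**Figure D1:**
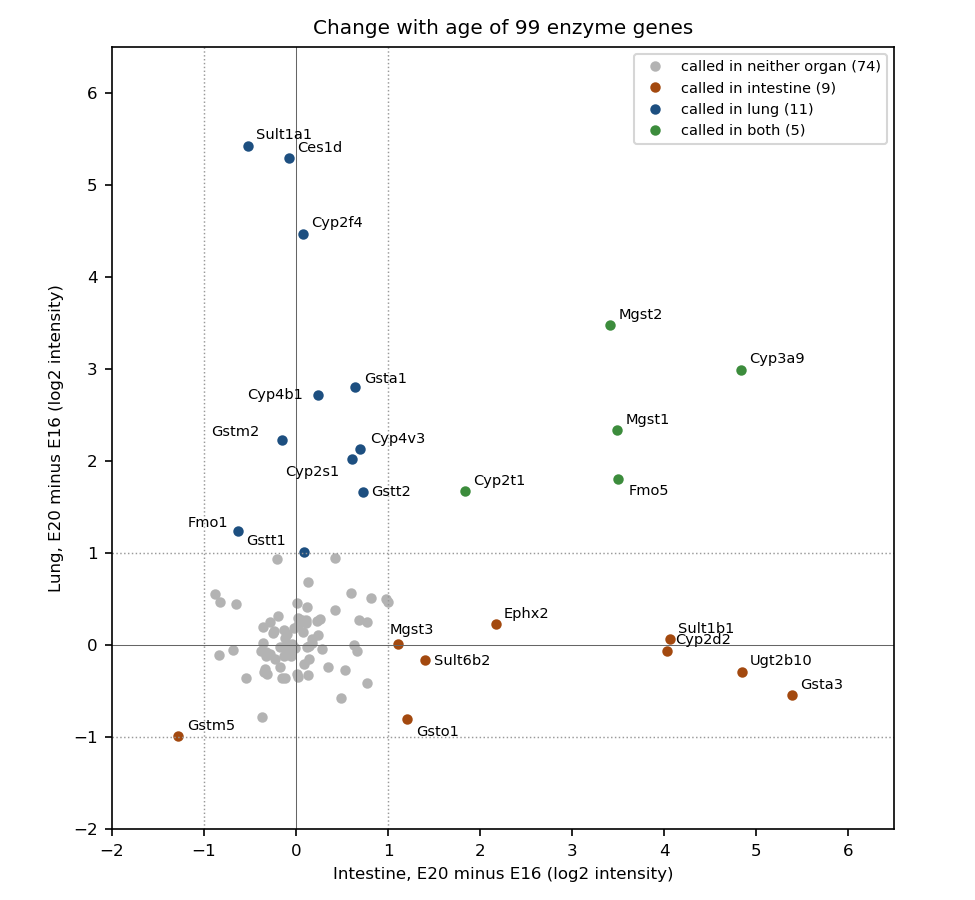
Change from E16 to E20 in intestine (horizontal axis) and lung (vertical axis), in log2 intensity units, for each of the 99 genes, coloured by where the change was called. The 5 genes called in both organs lie toward the upper right, 8 that rose in intestine alone lie along the horizontal axis, 11 that rose in lung alone lie along the vertical axis, and Gstm5 is the single gene called lower.

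Which genes rose differed between the organs. Cyp2t1, Cyp3a9, Fmo5, Mgst1 and Mgst2 rose in both, 5 of 99 (5 of the 13 intestinal and 5 of the 16 lung risers, with 3.81% of all genes called the same way in both). Cyp2d2, Ephx2, Gsta3, Gsto1, Mgst3, Sult1b1, Sult6b2 and Ugt2b10 rose in intestine and were not called in lung. Ces1d, Cyp2f4, Cyp2s1, Cyp4b1, Cyp4v3, Fmo1, Gsta1, Gstm2, Gstt1, Gstt2 and Sult1a1 rose in lung and were not called in intestine. None was called in opposite directions (background 0.464%), and 74 were called in neither organ (background 77.4%). The difference between the age changes was itself tested and was called for 26 members, 13 higher and 13 lower as lung minus intestine (background 17.6% of genes, 9.13% higher and 8.48% lower). It was called for all 8 of the intestinal set and for 9 of the 11 in the lung set. Gstt1 and Gstt2 missed the fold threshold of that test, at 0.93 each (SE 0.0741 and 0.103). Gstm5 also missed it, with a difference of 0.29 (SE 0.135, adjusted p = 0.0543).

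Glutathione S-transferase genes are classical targets of NRF2 (Nfe2l2), the factor of the oxidative stress response, which binds the antioxidant response element. Of the 99 genes, 82 had a promoter in the RefSeq table for GRCr8, each 250 bases before to 50 after the annotated start. The letters TGACNNNGC, the core of that element, were searched on both strands. They occurred in 7 of the 82 promoters (8.54%), in 1 of 11 intestinal risers and in 3 of 12 lung risers (25%), beside 12.2% of all 27457 promoters. The 5 promoters below are shown because they belong to genes called with age and hold these letters, in capitals. They read 5′ to 3′ along the gene: Cyp2s1 (chr1:90453024-90453323, minus strand), Cyp4b1 (chr5:134393067-134393366, minus), Gsta1 (chr9:31216483-31216782, minus), Gsta3 (chr9:31154739-31155038, plus) and Gstm5 (chr2:198219519-198219818, plus).
Cyp2s1: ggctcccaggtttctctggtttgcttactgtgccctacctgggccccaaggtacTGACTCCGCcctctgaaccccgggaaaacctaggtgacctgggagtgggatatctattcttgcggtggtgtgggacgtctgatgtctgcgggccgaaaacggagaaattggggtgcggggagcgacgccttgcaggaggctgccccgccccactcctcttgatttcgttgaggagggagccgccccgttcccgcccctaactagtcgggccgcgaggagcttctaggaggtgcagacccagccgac
Cyp4b1: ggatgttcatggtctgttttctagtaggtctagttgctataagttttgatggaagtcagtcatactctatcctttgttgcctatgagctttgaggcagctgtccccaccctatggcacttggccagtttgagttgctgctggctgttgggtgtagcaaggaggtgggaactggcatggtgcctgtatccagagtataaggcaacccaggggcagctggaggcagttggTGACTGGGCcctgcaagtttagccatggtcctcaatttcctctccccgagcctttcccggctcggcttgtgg
Gsta1: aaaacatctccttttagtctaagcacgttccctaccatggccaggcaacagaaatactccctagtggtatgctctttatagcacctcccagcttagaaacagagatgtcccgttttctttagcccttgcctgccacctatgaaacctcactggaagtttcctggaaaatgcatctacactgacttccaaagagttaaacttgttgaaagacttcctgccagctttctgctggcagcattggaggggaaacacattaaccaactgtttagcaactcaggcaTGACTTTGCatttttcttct
Gsta3: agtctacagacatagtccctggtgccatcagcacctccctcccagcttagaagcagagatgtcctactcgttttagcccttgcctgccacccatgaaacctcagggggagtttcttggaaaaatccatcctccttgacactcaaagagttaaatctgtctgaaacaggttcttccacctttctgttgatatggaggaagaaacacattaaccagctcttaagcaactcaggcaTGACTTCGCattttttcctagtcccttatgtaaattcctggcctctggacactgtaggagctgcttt
Gstm5: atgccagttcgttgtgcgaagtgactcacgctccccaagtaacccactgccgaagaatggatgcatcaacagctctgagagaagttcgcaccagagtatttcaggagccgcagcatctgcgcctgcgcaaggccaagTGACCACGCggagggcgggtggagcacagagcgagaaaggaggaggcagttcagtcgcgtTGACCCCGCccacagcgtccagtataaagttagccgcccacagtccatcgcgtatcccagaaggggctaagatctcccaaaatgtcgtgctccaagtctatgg

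The match began at position -196 from the start in Cyp2s1, -22 in Cyp4b1, 31 in Gsta1 and -17 in Gsta3, and Gstm5 held 2 matches, at -113 and -53. Gsta1 and Gsta3, neighbours on chromosome 9, shared a run of 20 letters, tttagcccttgcctgccacc, and the longest run shared by any other pair of the 5 was 10. Gsta3 rose in intestine and Gsta1 in lung. The C/EBP letters TTGCNNAA occurred in 27 of the 82 promoters (32.9%), beside 10.5% of all promoters. That share was 27.3% of intestinal risers, 33.3% of lung risers and 32.3% of members called with age in neither organ. Related genes can carry the same match, such as TTGCTCAA in Sult2a1, Sult2a2 and Sult2a6, so the promoters are not separate observations. The FOXA letters TGTTTAC occurred in 11% of members and 3.76% of all promoters, and in none of the risers of either organ. The letters TNGCGTG, the core read by the aryl hydrocarbon receptor with its partner Arnt, occurred in 2.44% of members and 5.12% of all promoters. Both strands were read for each motif given, and a match describes letters in this window and nothing about binding. Other motifs were also searched and are not given here.

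In intestine the largest rises were in transferases and P450s that were dim at E16. Gsta3, an alpha-class glutathione S-transferase, lay at 5.21 (lowest), 5.94 (median) and 7.21 (highest) in the E16 arrays and at 11.18, 11.33 and 11.80 at E20. The ages did not overlap, and the change was 5.39 (SE 0.238, adjusted p = 4.15e-23). Ugt2b10, which attaches glucuronic acid, ran 4.23, 4.58 and 6.13 at E16 and 9.05, 9.74 and 9.99 at E20. It rose by 4.84 (SE 0.175, adjusted p = 3.47e-26) and was the only one of 9 measured Ugt genes called with age in either organ. Cyp3a9, a member of the P450 subfamily that oxidises many drugs, ran 4.78, 5.12 and 6.18 at E16 and 9.62, 9.91 and 10.56 at E20, a rise of 4.83 (SE 0.128, adjusted p = 5.26e-31). Its neighbours in name, Cyp3a2, Cyp3a18 and Cyp3a23-3a1, were dim in every group.

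Sult1b1, a sulfotransferase of phenols and thyroid hormones, was the most variable of these at E16. Its E16 arrays ran 5.70, 7.03 and 8.15 and its E20 arrays 10.18, 11.32 and 11.69. The groups stayed apart, and the rise was 4.06 (SE 0.24, adjusted p = 8.33e-19). Cyp2d2, a rat P450 of the debrisoquine-oxidising subfamily, ran 6.11, 6.21 and 6.67 at E16 and 9.61, 10.27 and 10.86 at E20. It rose by 4.03 (SE 0.112, adjusted p = 2.72e-30), while Cyp2d4 (0.97, SE 0.0641) stood just below the fold threshold. Fmo5, a monooxygenase of carbonyl compounds, ran 5.43, 6.20 and 6.53 at E16 and 9.39, 9.72 and 9.86 at E20, a rise of 3.50 (SE 0.12, adjusted p = 5.34e-27). The highest value of Ugt2b10, Cyp3a9 and Cyp2d2 at E16 was in replicate 8, which was also the highest of its group for the 56 dim members (mean 6.65, beside a group median of 6.15). The part of this array in their values was not tested, and without the arrays with other tissues, this one among them, the rises were 4.91, 4.92 and 4.02.

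Mgst1, Mgst2, Mgst3 and Ephx2 rose from levels already above the median at E16. Mgst1, a membrane-bound transferase that also reduces lipid peroxides, ran 8.90, 9.33 and 10.07 at E16 and 12.73, 12.85 and 13.07 at E20. Mgst2, whose product can also make leukotriene C4, ran 9.14, 9.50 and 9.94 and then 12.77, 12.98 and 13.07. Their rises were 3.49 (SE 0.106) and 3.41 (SE 0.0792), with adjusted p of 5.99e-29 and 4.02e-33 and no overlap between ages. Mgst3, the remaining member, rose by 1.11 (SE 0.0818, adjusted p = 1.16e-15), so all 3 of the family rose in intestine. Mgst3 lay near the threshold, and limma's test against a 2-fold change did not call it (adjusted p = 0.794). Ephx2, the soluble epoxide hydrolase that opens fatty acid epoxides, ran 8.45, 9.03 and 9.27 at E16 and 10.76, 11.10 and 11.43 at E20, a rise of 2.17 (SE 0.11, adjusted p = 4.41e-21). Cyp2t1 (1.84), Sult6b2 (1.41) and Gsto1 (1.21), an omega-class transferase that reduces dehydroascorbate, completed the 13, each without overlap between ages.

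Gstm5, a mu-class glutathione S-transferase, was the single member that fell. It ran 11.02, 11.29 and 11.56 in E16 intestine and 9.67, 9.98 and 10.26 at E20, a change of -1.28 (SE 0.0954, adjusted p = 1.49e-15). In lung it ran 10.56, 10.82 and 11.22 and then 9.42, 9.81 and 10.27. That change, -0.99 (SE 0.0954, adjusted p = 3.95e-12), also left no overlap but missed the 2-fold limit. It passed when arrays were centred on their medians (-1.07), when arrays were weighted (-1.07) and without the arrays with other tissues (-1.13).

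**Figure D2:**
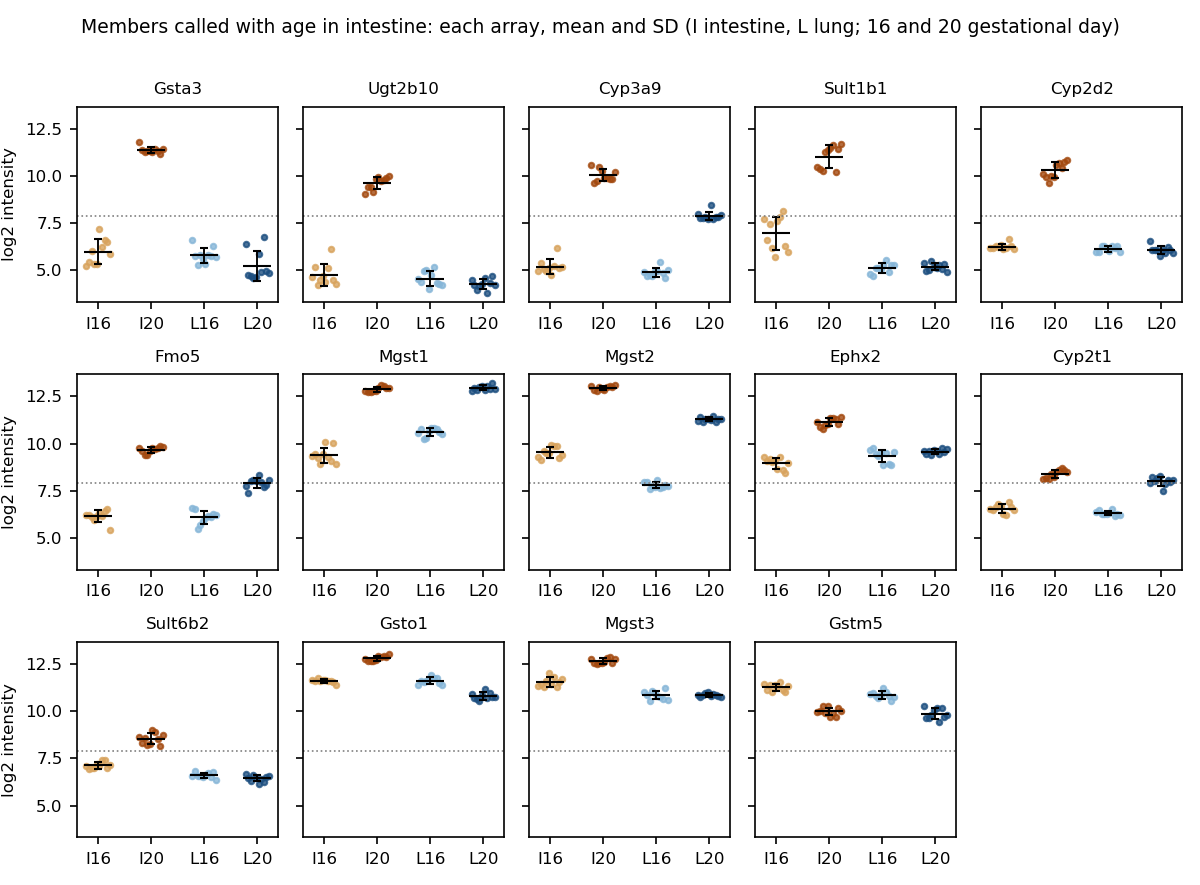
Log2 intensity of each array (points), with group mean and SD (bars), for the 14 genes called with age in intestine, in intestine E16 (I16), intestine E20 (I20), lung E16 (L16) and lung E20 (L20), 10 arrays each. The dotted line is the median over all probe sets, 7.89, and in each panel the I16 and I20 points do not overlap. In lung Gsta3, Ugt2b10, Sult1b1 and Cyp2d2 have group means between 4.29 and 6.15.

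In lung the largest rises, those of Sult1a1, Ces1d and Cyp2f4, were again in genes dim at E16, and these were not called in intestine. Mgst2 (3.47) and Cyp3a9 (2.99), next in size, rose in both organs. Sult1a1, the main phenol sulfotransferase, ran 6.18, 6.75 and 7.04 at E16 and 11.48, 12.17 and 12.53 at E20, a rise of 5.43 (SE 0.138, adjusted p = 5.83e-31). Ces1d, a carboxylesterase, ran 4.95, 5.60 and 5.92 and then 10.53, 10.88 and 11.20, a rise of 5.29 (SE 0.142, adjusted p = 3.71e-30). Its genomic neighbours Ces1c (-0.06) and Ces1e (0.26) were not called. Cyp2f4, the rat form of the club cell P450 that activates naphthalene, ran 4.24, 4.72 and 5.48 at E16 and 7.97, 9.28 and 9.81 at E20, a rise of 4.47 (SE 0.164, adjusted p = 1.94e-25). The 7.97 belonged to lung E20 replicate 6, the array with the high mesothelium list, and the next lowest was 9.0. That replicate also had the lowest Cyp2s1 value of its group (7.14) and the highest Cyp3a9 value (8.47), and the part of other tissue in these values was not tested. Without it and the other arrays with other tissues the rise of Cyp2f4 was 4.63.

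Further P450s rose by smaller amounts. Cyp4b1, a lung P450 that activates certain furans, ran 6.25, 6.70 and 6.87 at E16 and 8.87, 9.37 and 9.76 at E20, a rise of 2.71 (SE 0.0791, adjusted p = 6.67e-29). Cyp4v3, a fatty acid hydroxylase, ran 7.37, 7.61 and 7.85 and then 9.33, 9.80 and 9.94, a rise of 2.13 (SE 0.0751, adjusted p = 5.09e-26), while its dimmer probe set changed by 0.59 (SE 0.0766) and was not called. Cyp2s1, a P450 of epithelia outside the liver, ran 5.59, 5.70 and 6.15 and then 7.14, 7.82 and 8.24, a rise of 2.02 (SE 0.0993, adjusted p = 3.34e-21). Both were also higher at E20 in intestine, by 0.69 and 0.61, without reaching 2-fold. The genes shared with intestine rose by 2.99 (Cyp3a9, SE 0.128), 1.81 (Fmo5, SE 0.12) and 1.68 (Cyp2t1, SE 0.0869) in lung. Of these, Cyp3a9 and Fmo5 rose less in lung than in intestine (differences of -1.84 and -1.69, adjusted p = 9.25e-12 and 1.47e-11), and Cyp2t1 had a difference of -0.16 (SE 0.123, adjusted p = 0.253).

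Among the glutathione S-transferases of lung, members of 3 classes rose. Gsta1 ran 7.13, 7.53 and 7.86 at E16 and 9.91, 10.31 and 10.91 at E20, a rise of 2.80 (SE 0.135, adjusted p = 1.68e-21). The mu-class gene Gstm2 ran 8.24, 8.86 and 9.27 and then 10.66, 11.05 and 11.33, a rise of 2.23 (SE 0.101, adjusted p = 2.28e-22), and lay at 8.55 to 9.25 in all 20 intestine arrays. The theta-class genes Gstt2 (1.66, SE 0.0726) and Gstt1 (1.02, SE 0.0524), whose products act on small halogenated compounds, rose without overlap between ages. Gstt1 stood at the threshold and fell below it with quantile normalization (0.94), centring (0.94), array weights (just under 1) and a pseudocount (0.91). Its call was also lost in the test against a 2-fold change. Gstt2 lost its call when its probe sets were averaged (0.96). Mgst1 ran 10.24, 10.64 and 10.82 and then 12.77, 12.91 and 13.19, and Mgst2 7.60, 7.76 and 8.08 and then 11.12, 11.28 and 11.44. They rose by 2.34 (SE 0.106) and 3.47 (SE 0.0792), and for Mgst2 the change in lung minus that in intestine was 0.06 (SE 0.112, adjusted p = 0.634).

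**Figure D3:**
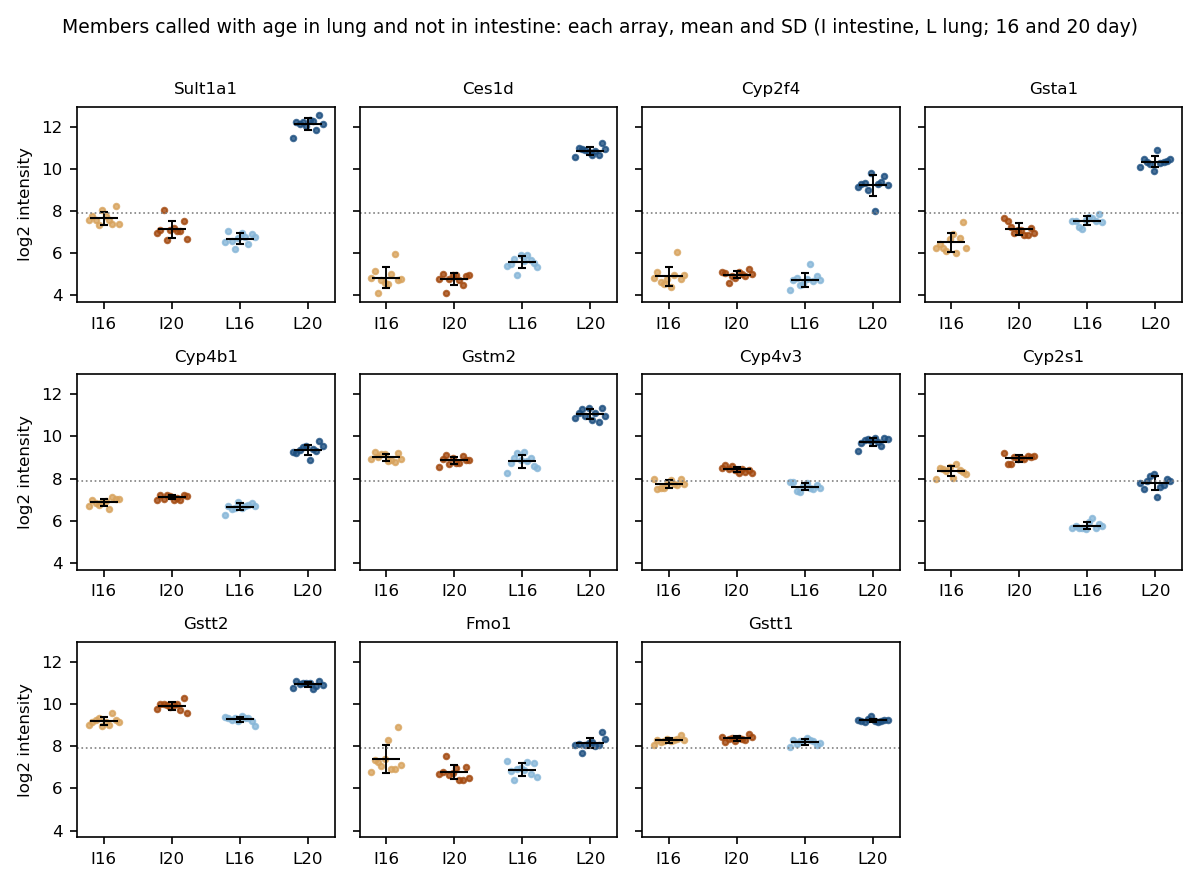
Log2 intensity of each array (points), with group mean and SD (bars), for the 11 genes that rose in lung and were not called in intestine; groups, panel layout and the dotted median line (7.89) are as for the intestinal genes. In each panel the L16 and L20 points do not overlap, and the change is largest for Sult1a1 (5.43) and smallest for Gstt1 (1.02).

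Gsta3 was not called in lung as a whole, and its E20 lung arrays were split. They ran 4.59, 4.90 and 6.76, with replicates 8 (6.76), 1 (6.42) and 6 (5.88) above all others. Replicates 1 and 8 were the lung arrays with the high hepatocyte list, and replicate 6 the one with the high mesothelium list. The change was -0.55 over all arrays (SE 0.238, adjusted p = 0.0418) and -1.02 without the arrays with other tissues. Of 12 measured hepatocyte genes, Hp (2.81) and Fetub (3.46) rose in lung and Alb (-2.93) and Afp (-4.56) fell. The summed hepatocyte level ran from 11.05 to 12.85 at E16 and from 11.26 to 13.61 at E20 (log2 of the summed intensities). The part of liver RNA in the lung values of Gsta3 was not tested beyond this.

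The flavin-containing monooxygenases were the family in which the choice of probe set mattered most. Fmo1 ran 6.41, 6.90 and 7.28 in E16 lung and 7.70, 8.10 and 8.66 at E20, a rise of 1.24 (SE 0.18, adjusted p = 8.12e-08). On log2(intensity + 50) its change was 0.97 and the call was lost, as it was in the test against a 2-fold change. In intestine Fmo1 changed by -0.63 (SE 0.18), with the E16 arrays spread from 6.79 to 8.89 and the highest, replicates 9 (8.89) and 6 (8.29), among those with other tissues. Fmo2, the main flavin monooxygenase of lung in many mammals, is read by 3 probe sets. The brightest changed by 0.69 in lung (SE 0.125) and was not called, whereas the second changed by 1.77 (SE 0.107) and the third by 3.91 (SE 0.193). The third ran 4.11, 4.37 and 5.29 at E16 and 7.22, 8.45 and 9.31 at E20 in lung, and 4.43 to 6.06 in all intestine arrays. Fmo4 is read by 2, of which the brighter changed by 0.11 in intestine and 0.28 in lung and the other by 2.96 and 1.39 (SE 0.0981). On the latter, intestine ran 5.41, 5.88 and 6.43 at E16 and 8.46, 8.85 and 9.09 at E20. Which transcripts each probe set reads was not analysed here, and the size of the change for both genes depends on the probe set.

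**Figure D4:**
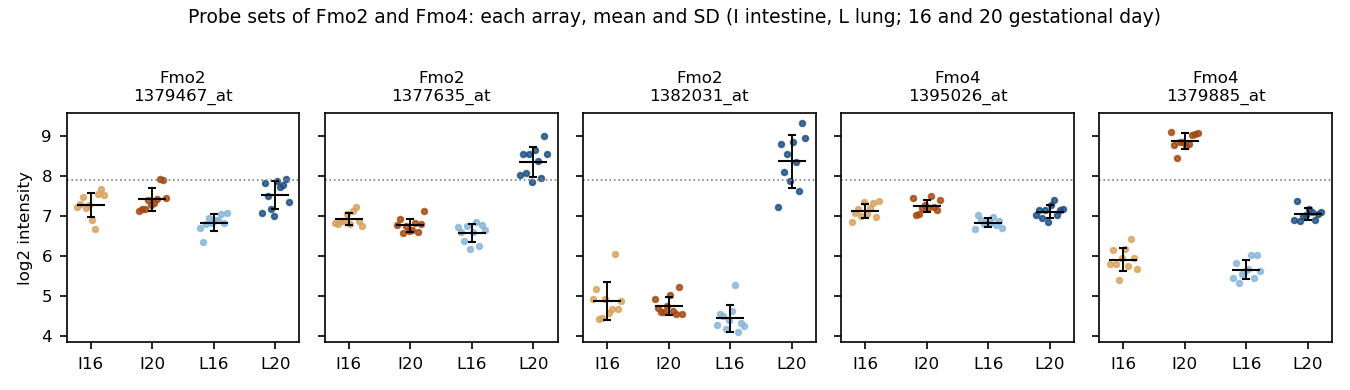
Log2 intensity of each array (points), with group mean and SD (bars), for the 3 probe sets of Fmo2 and the 2 of Fmo4 in intestine E16 (I16), intestine E20 (I20), lung E16 (L16) and lung E20 (L20), with the median over all probe sets (7.89) dotted. For Fmo2 the change in lung is 0.69, 1.77 or 3.91 by probe set, and for Fmo4 the change in intestine is 0.11 or 2.96.

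Several classical members of the families showed no called change. Cyp1a1, the standard target of the aryl hydrocarbon receptor, had medians of 6.89 and 6.77 in intestine and 6.77 and 7.0 in lung at E16 and E20. Cyp1a2, Cyp2c11 and Cyp2e1, prominent in adult liver, and Cyp4a1, a fatty acid hydroxylase under PPARα, were dim in all groups and not called in any comparison. None of 7 Cyp2c, 5 Cyp4f or 4 Sult2 genes was called with age, and with 15.1% of all genes called in intestine and 11.8% in lung, nothing particular to subfamilies of this size is read from that. Sult1e1 and Sult2a1, sulfotransferases of oestrogens and hydroxysteroids, had no array above 6.19. With dim probe sets, a low or restricted level and poor probes cannot be told apart. In all, 65 of 99 members were called in no age or tissue comparison, beside 72.4% of all genes.

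Bright genes also stayed under the threshold, 18 in all. Ephx1, the microsomal epoxide hydrolase, ran 7.89, 8.12 and 8.32 in E16 lung and 8.53, 9.11 and 9.34 at E20 without overlap, a change of 0.94 (SE 0.0758). Gsta4, the alpha-class enzyme of lipid aldehydes, ran 11.34, 11.55 and 11.78 in E16 intestine and 11.88, 12.62 and 12.90 at E20. Its change of 1.00 was just under the 2-fold limit (1.99-fold, SE 0.0805) and passed with centring (1.05). Gstp1, the pi-class enzyme, and Gstm1, a mu-class enzyme, moved in opposite senses between the organs. Gstp1 changed by 0.77 in intestine and -0.41 in lung (difference -1.18, SE 0.102, adjusted p = 1.74e-13), and Gstm1 by -0.88 and 0.56 (difference 1.44, SE 0.089, adjusted p = 7.66e-18). Gsto1 did likewise, with 1.21 in intestine and -0.81 in lung (difference -2.02, SE 0.0971, adjusted p = 2.12e-21). These organ differences were called. Except for the intestinal rise of Gsto1, the single changes had limma's adjusted p under 0.05 but missed the 2-fold minimum.

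Between organs, fewer members differed at E16 than at E20. At E16, 8 of 99 were called between lung and intestine (8.08%, beside 5.13% of all genes), 2 higher and 6 lower in lung (background 2.13% and 3%). Cyp2s1 was -2.59 in lung relative to intestine (SE 0.0993, adjusted p = 2.41e-24), Sult1b1 -1.83, Mgst2 -1.74, Sult4a1 -1.34, Cyp1b1 -1.20 and Sult5a1 -1.13. Mgst1 was 1.23 and Gsta1 1.02 higher in lung, Gsta1 with overlapping arrays. Centring the arrays moved the median difference of all genes at E16 from -0.11 to 0.04, and 7 of the 8 calls were shared: Sult5a1 lost its call (-0.98) and Gstt3 gained one (1.10), so that 3 were higher and 5 lower in lung. At E20, 29 were called (29.3%, beside 16.1% of all genes), 11 higher and 18 lower in lung (background 7.91% and 8.21%). Among the 43 members above the median in a group, 11 were higher and 14 lower (58.1% called, beside 19.6% of such genes). That filter uses the same values, so a gene can pass it only through the organ in which it is high. On log2(intensity + 50), 8 were higher and 14 lower (13.6% of all genes called). The 56 dim members had median array means of 6.18 in intestine E20 and 5.88 in lung E20, and the part of this offset in the calls was not tested. The widest separations were those of Gsta3 (-6.11, SE 0.238), Sult1b1 (-5.83, SE 0.24) and Ugt2b10 (-5.33, SE 0.175) toward intestine and of Ces1d (6.08, SE 0.142), Sult1a1 (4.99, SE 0.138) and Cyp2f4 (4.23, SE 0.164) toward lung.

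Mgst1 and Cyp2s1 differed less between the organs at E20 than at E16 (differences between the age changes of -1.16 and 1.41, adjusted p = 8.08e-09 and 1.09e-11). Mgst1 was higher in lung at E16 and had a difference of 0.07 (SE 0.106) at E20. Mgst2 kept its difference (-1.74 and -1.67). Cyp2s1, 6.01-fold lower in lung at E16, was 2.26-fold lower at E20. Cyp1b1, a P450 of oestradiol and polycyclic hydrocarbons, ran 9.96, 10.27 and 10.49 in E16 intestine and 8.87, 9.0 and 9.22 in E16 lung, and was lower in lung at both ages (-1.20 and -1.02) without a called age change. Its E20 value stood at the threshold and was not called with centring (just under 1 in size), with a pseudocount (-0.94), without the arrays with other tissues and intestine E20 replicate 2 (-0.99) or against a 2-fold change, and its E16 call was also lost against a 2-fold change. Cyp2u1 (1.07) and Gstt3 (1.03), called with age in neither organ, were higher in lung at E20. Both lost the call on log2(intensity + 50) (0.97 and 0.99) and against a 2-fold change, and Gstt3 already differed by 0.95 at E16 (SE 0.148, adjusted p = 6.9e-07).

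**Figure D5:**
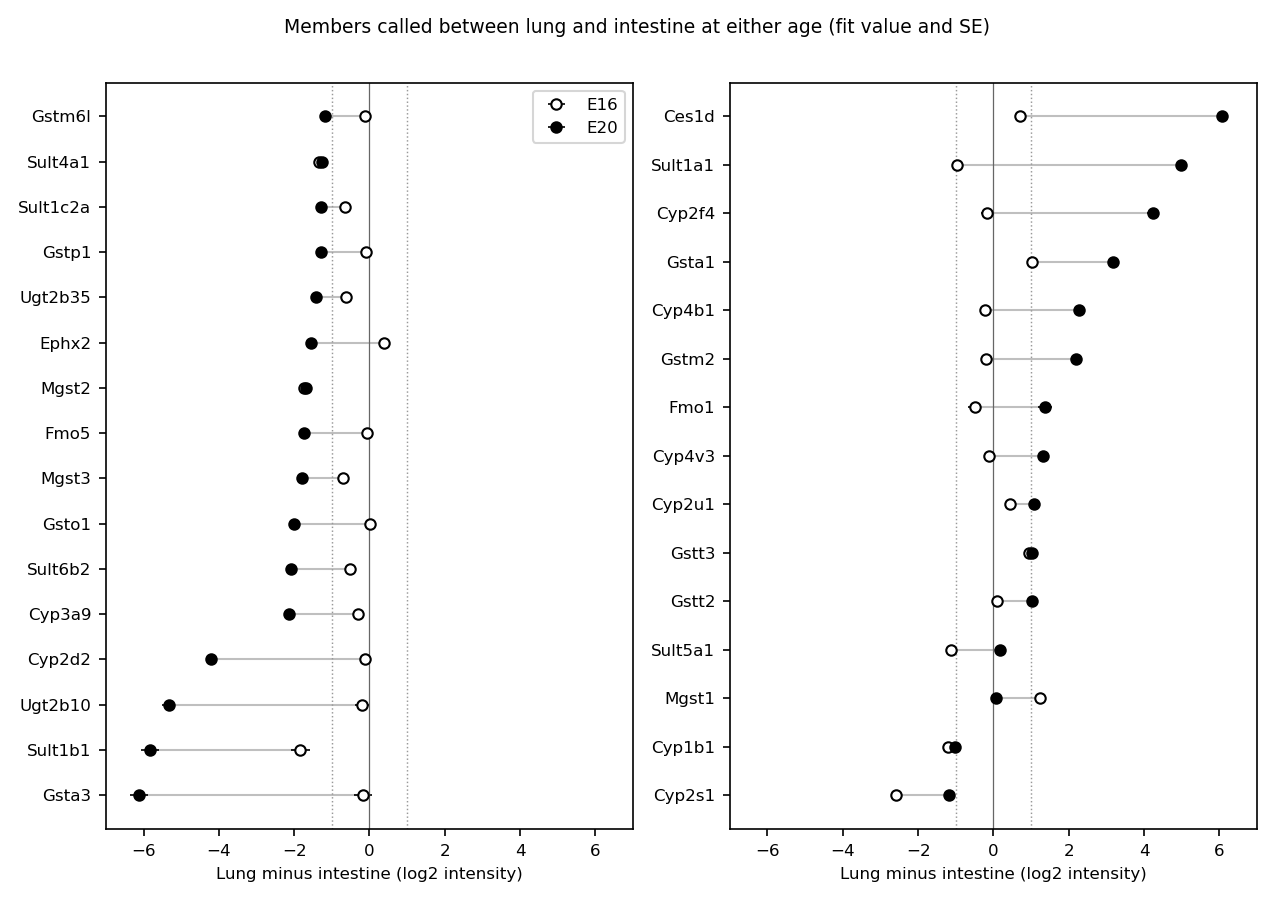
Lung minus intestine in log2 intensity units at E16 and at E20 (point and SE of the fit) for each gene called between the organs at either age, in order of the E20 difference. At E20 the differences run from -6.11 (Gsta3) to 6.08 (Ces1d), while at E16 they lie between -2.59 (Cyp2s1) and 1.23 (Mgst1).

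Many of these genes lie in tandem clusters. With at most 10 protein-coding genes between neighbours in the GRCr8 gene order, 74 of the 98 members placed fell into 18 clusters. The cluster from Cyp2s1 to Cyp2t1 held 10 members: Cyp2s1, Cyp2f4 and Cyp2t1 rose in lung, Cyp2t1 alone rose in intestine, and the 7 Cyp2a, Cyp2b and Cyp2g genes were called in neither. Cyp2f4 and Cyp2t1 had no protein-coding gene between them. The cluster of Sult1d1, Sult1b1 and 8 Ugt2 genes held the intestinal risers Sult1b1 and Ugt2b10, and its other 8 members were not called. In the mu-class cluster of 7, Gstm2 rose in lung and Gstm5 fell in intestine. In the theta-class cluster of 3, Gstt1 and Gstt2 rose in lung and Gstt3 was not called. These counts stand beside 15.1% of all genes called in intestine and 11.8% in lung, and nothing particular to a cluster is read from them. Close relatives can share probe sequence, so paralogs within a cluster are not taken as fully separate measurements. Probe sets with a name suffix x, s or a read 4 of the 99 genes, Cyp2j3 (suffix a) among them. The suffixes were not told apart, so this count does not measure sharing between paralogs.

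The genes that regulate and supply these enzymes were read from lists. Of 13 measured regulators, 4 rose in intestine (30.8%, beside 8.79% of all genes) and 2 in lung (15.4%, beside 7.15%). Hnf4a, the nuclear receptor of gut and liver epithelium, rose by 4.17 in intestine (SE 0.142) and changed by 0.12 in lung. The leucine-zipper factors Cebpa (3.53 and 2.78) and Cebpb (1.49 and 1.21) rose in both organs. Nfe2l2 rose in intestine (1.40) and had a change of 0.47 in lung. The xenobiotic receptors were not called: Ahr changed by 0.37 and 0.71, Nr1i2 (PXR) by 0.62 and 0.06, and Nr1i3 (CAR) by 0.33 and -0.23 in intestine and lung.

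Of 12 genes for electron donors and cosubstrates, 2 rose and 1 fell in intestine (16.7% and 8.33%, beside 8.79% and 6.26% of all genes), and 3 rose in lung (25%, beside 7.15%). Por, the P450 oxidoreductase, rose by 1.21 in lung (SE 0.074) and changed by 0.67 in intestine (SE 0.074). Papss2, which makes the sulfate donor, rose in both (1.24 and 1.16). Gsr, glutathione reductase, rose by 1.49 in intestine, while Gclm, the modifier subunit of glutathione synthesis, fell there (-1.94). Ugdh, which makes the glucuronic acid donor, changed by 0.56 in intestine and -0.63 in lung. Of 10 transporters, 3 rose in intestine and 1 rose and 1 fell in lung, beside 8.79% of all genes rising in intestine and 7.15% rising and 4.63% falling in lung. The efflux pumps Abcc2 (4.06) and Abcg2 (2.50) and the prostaglandin carrier Slco2a1 (1.39) rose in intestine. In lung Slco2a1 rose (2.11) and Abcg2 fell (-1.20).

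Of 21 other drug-metabolizing enzymes, 3 rose and 1 fell in intestine (19% called, beside 15.1% of all genes), and 4 rose and 1 fell in lung (23.8%, beside 11.8%). The lactonase Pon3 rose in both organs (3.86 and 4.13). The aldehyde reductases Akr7a2 (1.89) and Akr7a3 (1.81) rose in intestine, and the quinone reductase Nqo1 (1.53) and lactonase Pon2 (1.30) in lung. Aldh1a1, a retinal dehydrogenase, fell in intestine (-1.69) and rose in lung (1.74), and Nqo2 fell in lung (-1.39). The median changes of the 4 lists ran from 0.14 to 0.51 in intestine and from 0.03 to 0.33 in lung, beside -0.09 and -0.01 over all genes.

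Cell type marker levels also changed with age, and no link between them and the enzyme values was computed. The summed enterocyte level (log2 of the summed intensities of 8 genes) ran from 9.92 to 10.86 in intestine at E16 and from 16.00 to 16.60 at E20, and the goblet level from 10.04 to 11.04 and from 14.73 to 15.32. In lung the alveolar type II level ran from 11.24 to 12.35 and then from 16.25 to 16.63, and the airway secretory level from 9.61 to 10.48 and then from 14.38 to 14.95. Other lists moved as well. Of 5 alveolar type I genes, 4 rose in lung, while 2 rose and 1 fell in intestine. Of 4 ciliated cell genes, 3 rose in lung and 1 fell in intestine. Of 6 erythroid genes, 5 fell in intestine (median change of the list -3.69) and 3 fell in lung (-1.01), with summed levels from 16.21 to 16.65 and then 14.18 to 14.98 in intestine, and from 16.00 to 16.27 and then 15.08 to 15.53 in lung. Of 12 hepatocyte genes, Fga (3.97), Afp (2.98) and Serpina1 (2.90) rose in intestine, and the summed level ran from 10.84 to 13.97 at E16 and from 13.28 to 14.18 at E20. The part of cell number or of other tissue in the enzyme values was not tested.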

How the data were processed

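Arrays of 40 samples in 4 groups of 10 were used as deposited: the authors' values are normalized intensities on a linear scale, with RMA named in the submitters' processing notes without a version. RMA is a method of background correction, normalization across arrays and summary over probes; the genome build and whether both tissues were normalized together are not given in the sources used here. No detection calls were used, and the number of arrays limits the precision. The planned test assumed log2 values, so log2 was taken first. Genes were named with the platform annotation, and 98 of 99 members had a current RefSeq symbol. Probe sets naming several genes (436) or none (9831) were left out.

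A mean per group was fitted to all 40 arrays with limma 3.58.1 in R 4.3.3 without covariates, and 5 contrasts were taken, two-sided, with Benjamini-Hochberg adjustment over 14218 genes. The fit was tested on simulated data. Members and gene lists were chosen with earlier results of these data known. Any member may be named; values by group are given for up to 10 called rises and falls per age comparison and 5 per tissue comparison, with the brighter group above the median, and for a fixed set of family members by role. Members of that set without a probe set of their own are not analysed here. The 12 members with more than 1 probe set were also fitted by probe set. Of 14 alternatives, 2 were chosen after seeing the data: the probe set with the highest group mean, and leaving out intestine E20 replicate 2 as well. Promoters and gene order came from RefSeq tables for GRCr8.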

Additional observations from a re-analysis of the deposited data

Results flagged for a closer look

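Among 172 combinations of a named gene and a group, 20 had an array apart from the other 9 by Dixon's criterion for 10 arrays, where chance gives about 8.6. Intestine E16 replicate 8 was the highest of its group for 5 genes that are dim there: Cyp2d2 (6.67), Cyp2f4 (6.07), Cyp3a9 (6.18), Sult1e1 (6.19) and Ugt2b10 (6.13). That array also had the highest lower quartile of intensity in its group (118.3). In the same group Gstk1 was lowest in replicate 9 (9.93) and Ugt2b1 highest in replicate 7 (7.66). In intestine E20, Gsta3 was highest in replicate 1 (11.80), and in replicate 3 Cyp4f1 was lowest (4.98) and Fmo1 highest (7.52). In lung E16, replicate 7 was highest for Cyp2f4 (5.48) and Cyp3a9 (5.44), replicate 9 for Cyp1a1 (7.19), and the lowest values were those of Cyp4b1 in replicate 1 (6.25) and Fmo2 in replicate 2 (6.35). In lung E20, replicate 6 was lowest for Cyp2f4 (7.97) and highest for Cyp3a9 (8.47), replicate 5 was highest for Gstp1 (12.12) and Gstt1 (9.42), and replicate 3 lowest for Cyp1b1 (8.45).

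For 22 named genes the change with age differed between the organs by limma's test of that difference and by at least 2-fold. The change in lung minus that in intestine was positive for Sult1a1 (5.95), Ces1d (5.37), Cyp2f4 (4.40), Cyp4b1 (2.48), Gstm2 (2.38), Gsta1 (2.16), Fmo1 (1.87), Gstm1 (1.44), Cyp4v3 (1.44), Cyp2s1 (1.41) and Sult5a1 (1.30). It was negative for Gsta3 (-5.93), Ugt2b10 (-5.13), Cyp2d2 (-4.09), Sult1b1 (-3.99), Gsto1 (-2.02), Ephx2 (-1.94), Cyp3a9 (-1.84), Fmo5 (-1.69), Gstp1 (-1.18), Mgst1 (-1.16) and Mgst3 (-1.10). A positive difference is not always a larger change in lung: Gstm1 changed by -0.88 in intestine and 0.56 in lung. Sult5a1, a sulfotransferase, ran 9.84, 10.19 and 10.66 in intestine E16 and 9.23, 9.33 and 9.59 at E20, and 8.93, 9.08 and 9.30 and then 9.32, 9.57 and 9.82 in lung. Its intestinal change (-0.83) and lung change (0.47) had opposite signs, with no overlap between ages in either organ.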

How the results depend on the processing

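Among the 43 named genes no called value changed sign under the 14 alternatives. Over 2864 recomputed values of these genes, 2746 kept their side of the threshold, 93 passed newly and 25 lost the call. Dropping the fold minimum gave 56 members with age in intestine (33 higher, 23 lower), 54 in lung (42 and 12), 49 for the difference, 65 between organs at E16 and 68 at E20, with 71.5%, 66.7%, 66.2%, 64.1% and 73.1% of all genes called. A test against a 2-fold change left 4 members between organs at E16. Under the other alternatives the counts ran from 13 to 16 in intestine, 14 to 20 in lung, 20 to 29 for the difference, 6 to 9 at E16 and 21 to 31 at E20. With the replicate number as a block the counts were 14, 16, 26, 8 and 29, as without it. With arrays of the same age and number paired they were 26, 8 and 29 for the last 3. Every group holds the same replicate numbers, so both fits keep the size of each change and could move only the adjusted p. The equal counts therefore say little about pairing. Deviations from the group means, over genes with a mean above the median, were correlated between arrays of the 2 organs. At E16 they correlated above 0.1 in 7 of 10 same-numbered pairs (highest 0.70), and 6 of 10 correlated best with their own number. That is a hint of pairing from the data that the labels do not give. At E20 these counts were 4 and 1 of 10, and the numbers were not taken as pairs. Changes of genes dim at E16 depend on the background: on log2(intensity + 50) Ugt2b10 rose by 3.41 in intestine and Cyp2f4 by 3.06 in lung. Leaving out intestine E20 replicate 2 as well brought in Gsta4 in intestine (1.08).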

Other observations

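Cyp17a1, the steroid 17-hydroxylase, lies outside the families described and came from the adrenal cortex list. In intestine it ran 4.88 (lowest), 5.32 (median) and 6.21 (highest) at E16 and 10.04, 10.98 and 11.40 at E20, with no overlap, a change of 5.43 (SE 0.15, limma adjusted p = 1.94e-30). In lung its change was 0.05 (SE 0.15). The other measured adrenal genes were dim in all groups and not called with age in either organ: Cyp11a1 changed by -0.22 in intestine, Star by -0.18 and Cyp11b1 by -0.31.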
